A study of Mus musculus with 14 samples.

Results

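The 32 genes described here mark the cells of blood vessels, and they were followed in whole hearts of mice with a mitochondrial cardiomyopathy. One experiment deleted the gene of the transcription factor Atf3, and the other used a hairpin RNA directed at it. Of the 32, 24 mark the endothelial cells that line vessels and 8 mark the mural cells around them, the pericytes of capillaries and the smooth muscle cells of larger vessels. They are well known marker genes, listed with earlier results of these data known, and the condition was that both deposited count tables, which hold 42396 genes each, have a row for them. All 32 met it. All 14 hearts came from female FS6KD mice, in which a gene trap lowers Ndufs6, a subunit of respiratory complex I, mainly in the heart. In the knockout experiment, 4 Atf3+/+FS6KD hearts were set against 4 Atf3-/-FS6KD hearts, collected after 12 weeks. The Atf3-/- animals descend from founders edited with CRISPR-Cas9 guides to exon 2 and exon 4, which left a large deletion in the coding region, and the deletion is present in every cell type, vessel cells included. In the AAV experiment, 3 hearts were labelled MyoAAV2-shCtrl and 3 were labelled MyoAAV2-shAtf3, 12 weeks after newborn mice had received a viral vector directed to muscle that carried a control or an Atf3 short hairpin RNA. The Ndufs6 trap is common to all 4 groups, so neither experiment held a heart with normal complex I, and the strain background of the line was a mix of C57BL/6J and 129/Ola.

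Endothelial cells form one continuous sheet held together by junction proteins such as VE-cadherin (Cdh5), and they take their cues from the blood-borne and tissue ligands of the VEGF, angiopoietin, apelin and Notch systems. Capillary endothelium of the heart is specialised for handing fatty acids to cardiomyocytes, for which it carries Gpihbp1, the anchor of lipoprotein lipase, and the fatty acid carrier Fabp4. Pericytes are recruited by PDGF-B through the receptor Pdgfrb, and smooth muscle cells are recognised by the contractile proteins Myh11, Tagln and Cnn1. RNA of a whole heart mixes all of these cells, so that fewer cells of a type and less RNA per cell cannot be told apart.

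Libraries held 33914931 to 134920825 estimated counts in the knockout experiment, where replicates 3 and 4 of both genotypes (112904389 to 134920825) were deeper than replicates 1 and 2 (33914931 to 42409691), and 30085432 to 40534913 in the AAV experiment. Atf3 itself was measured at 25.7, 6.89, 6.90 and 6.35 CPM (counts scaled to a common library size) in Atf3+/+FS6KD hearts and at 25.5, 37.6, 22.7 and 14.3 CPM in Atf3-/-FS6KD hearts. The count of the whole gene also takes in exons that the deletion leaves in place, so it does not check the genotype. In the AAV experiment Atf3 lay between 10.1 and 14.1 CPM in libraries labelled shCtrl and between 12.1 and 21.2 CPM in those labelled shAtf3. In that table the columns of the libraries titled shCtrl carry the name Atf3 and those titled shAtf3 the name Cont, so every direction below is conditional on the titles. The labels number the replicates without naming an animal for each, and p values measure the spread between these libraries.

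The endothelial and mural genes were all readily detected. Levels of different genes were set side by side as RPKM (CPM per kilobase of exonic length, with CPM scaled within each experiment), averaged over the 14 hearts. Rgs5, a regulator of G protein signalling that pericytes express strongly, was the most abundant per length at 197 RPKM (range 159.9 to 216). Fabp4 followed at 96.0, ahead of Ly6c1, a surface protein of capillary endothelium and some leukocytes, at 71.6. Next came Cdh5 at 51.6, the TGF-β co-receptor endoglin (Eng) at 38.2 and the adhesion molecule Pecam1 at 27.2 RPKM. The receptors Kdr (VEGFR2, 25.0), Tie1 (20.2), Tek (TIE2, 16.4) and Flt1 (VEGFR1, 12.5) sat in the middle of the order, together with Pdgfrb at 19.5. At the low end were Sox17, a transcription factor of arterial endothelium, and the pericyte proteoglycan Cspg4, both at 2.02, and Cnn1 at 1.10. Among the 31 pairs of neighbours in this order, the ranges over the 14 hearts overlapped in 28. Within hearts, the order of the neighbours was the same in all 14 for 6 pairs, such as Fabp4 over Ly6c1 and Cdh5 over Eng, and changed between hearts for 25. Fabp4 is also an adipocyte gene, and the 7 adipocyte markers examined summed to between 0.217 and 2.15 CPM, against 331 to 565 CPM for Fabp4 alone. The rows of Cldn5, the main claudin of tight junctions, and of Erg, an ETS factor that maintains endothelial identity, share their reads with a second copy listed on an alternate locus, which held 50% of the sum for Cldn5 in every library and 46.2% to 53.9% for Erg. With the copies merged the averages rose from 7.50 to 15.0 RPKM for Cldn5 and from 4.36 to 8.96 RPKM for Erg.

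**Figure D1:**
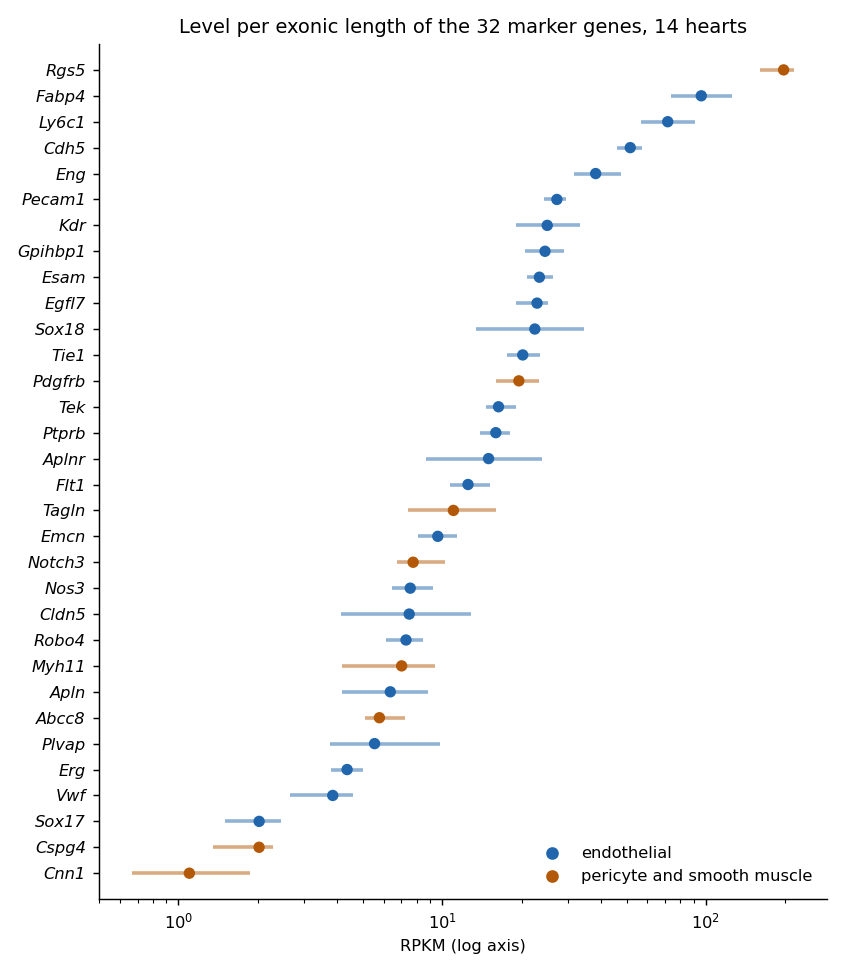
RPKM of each of the 32 genes on a log axis, with the mean over 14 hearts as a point and the lowest and highest heart as the ends of the line (blue, endothelial; brown, pericyte and smooth muscle). Rgs5 stands at the top with 197 RPKM and Cnn1 at the bottom with 1.10 RPKM.

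Promoter sequence was at hand for 16 of the 32 genes, in 21 windows of 250 bases before and 50 bases after a transcript start (RefSeq, GRCm38.p6). They were searched on both strands for TGACGTCA, the cyclic AMP response element (CRE) that the study names as the ATF3 consensus, and for TGANTCA (AP-1), ACNGGAAG (ETS) and the CArG box of smooth muscle genes. Flt1 was the single gene of the 16 with a CRE, in 1 of the 21 windows, a motif held by 1.79% of all 32851 windows. Its CRE, 81 to 74 bases before the start, shares 1 base with an ETS match at 74 to 67 bases before it. ETS matches were also found in Egfl7 and Emcn, so that 4 of the 21 windows held one, against 8.15% of all windows. The AP-1 motif (7.81% of all windows) and the CArG box (1.63%) had no match in the 21 windows. The 250 bases before the start are shown for Flt1 because it carries the CRE, for Egfl7 because it carries an ETS match and is described further below, and for Kdr and Cldn5 because the same 3 hearts of the knockout experiment were lowest in both. Capitals mark the CRE and ETS matches, and Kdr and Cldn5 had no match to the motifs searched. A match describes the letters only and says nothing of binding. Flt1 spans chr5:147726012-147726261 on the minus strand, Egfl7 chr2:26580833-26581082 on the plus strand, Kdr chr5:75978456-75978705 on the minus strand and Cldn5 chr16:18776597-18776846 on the plus strand.
Flt1: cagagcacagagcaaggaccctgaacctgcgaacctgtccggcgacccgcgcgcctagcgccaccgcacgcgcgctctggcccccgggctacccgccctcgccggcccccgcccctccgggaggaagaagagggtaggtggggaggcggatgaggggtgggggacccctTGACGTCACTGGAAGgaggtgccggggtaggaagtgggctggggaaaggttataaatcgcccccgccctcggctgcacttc
Egfl7: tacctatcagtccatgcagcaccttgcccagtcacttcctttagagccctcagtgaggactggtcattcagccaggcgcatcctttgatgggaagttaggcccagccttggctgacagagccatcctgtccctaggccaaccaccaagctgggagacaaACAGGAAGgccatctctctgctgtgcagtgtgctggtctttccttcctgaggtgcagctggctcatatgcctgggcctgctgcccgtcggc
Kdr: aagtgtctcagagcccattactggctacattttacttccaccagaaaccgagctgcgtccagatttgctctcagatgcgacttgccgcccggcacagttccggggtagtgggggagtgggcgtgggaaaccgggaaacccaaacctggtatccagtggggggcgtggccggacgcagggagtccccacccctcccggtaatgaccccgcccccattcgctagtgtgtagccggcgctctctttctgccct
Cldn5: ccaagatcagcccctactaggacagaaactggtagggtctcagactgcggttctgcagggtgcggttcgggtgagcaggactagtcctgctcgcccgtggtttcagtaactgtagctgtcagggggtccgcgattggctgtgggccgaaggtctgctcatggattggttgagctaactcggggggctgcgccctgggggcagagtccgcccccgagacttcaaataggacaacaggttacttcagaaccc

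The first comparison asks whether hearts without Atf3 differ in their vessel markers. None of the 32 genes passed an adjusted p of 0.05 in the knockout comparison (edgeR quasi-likelihood F-test, Benjamini-Hochberg over 15592 genes), where 0% of all genes tested passed, and none passed with DESeq2. At an unadjusted p below 0.05 stood 8 of the 32, against 10.1% of all genes tested, with 5 of the 32 higher (5.41% of all genes) and 3 lower (4.69%). The endothelial genes had a median of 0.098 on the log2 scale, with 19 of 24 above 0, and the mural genes one of 0.11, with 6 of 8 above 0. The median over all genes tested was 0.00054, with 50.2% above 0. With 1 library left out the endothelial median ran from 0.0415 to 0.136 and the mural one from 0.0712 to 0.184, and scaling by library size alone gave 0.16 and 0.177 beside 0.0616 over all genes. The estimates were narrow for most genes: the 95% interval lay inside a 1.5-fold change either way for 19 of 24 endothelial genes and for 6 of 8 mural genes. The intervals that reached beyond it belonged to Sox18, Cldn5, Plvap, Apln and Aplnr and to Tagln and Cnn1. Leaving out Atf3+/+FS6KD replicate 1 or 3, or Atf3-/-FS6KD replicate 2, brought the 8 genes down to 5 each time, leaving out Atf3-/-FS6KD replicate 3 to 4, and leaving out Atf3-/-FS6KD replicate 4 to 3. Within the deeper replicates 3 and 4 alone 11 of the 32 genes had an unadjusted p below 0.05, against 7.09% of all genes in that fit. Within replicates 1 and 2 alone 0 did, against 5.9% of all genes, and the median of the mural genes was 0.31 in the first and −0.042 in the second. Within replicates 1 and 2 and within replicates 3 and 4, in that order, the log2 fold changes of the 8 genes, which were chosen on these same hearts, were 0.13 and 0.35 for Pdgfrb, 0.10 and 0.28 for Egfl7, 0.34 and 0.78 for Plvap, 0.37 and 0.65 for Aplnr, and 0.17 and 0.16 for Esam. They were −0.19 and −0.21 for Ptprb, −0.25 and −0.13 for Vwf, and −0.26 and −0.10 for Abcc8.

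**Figure D2:**
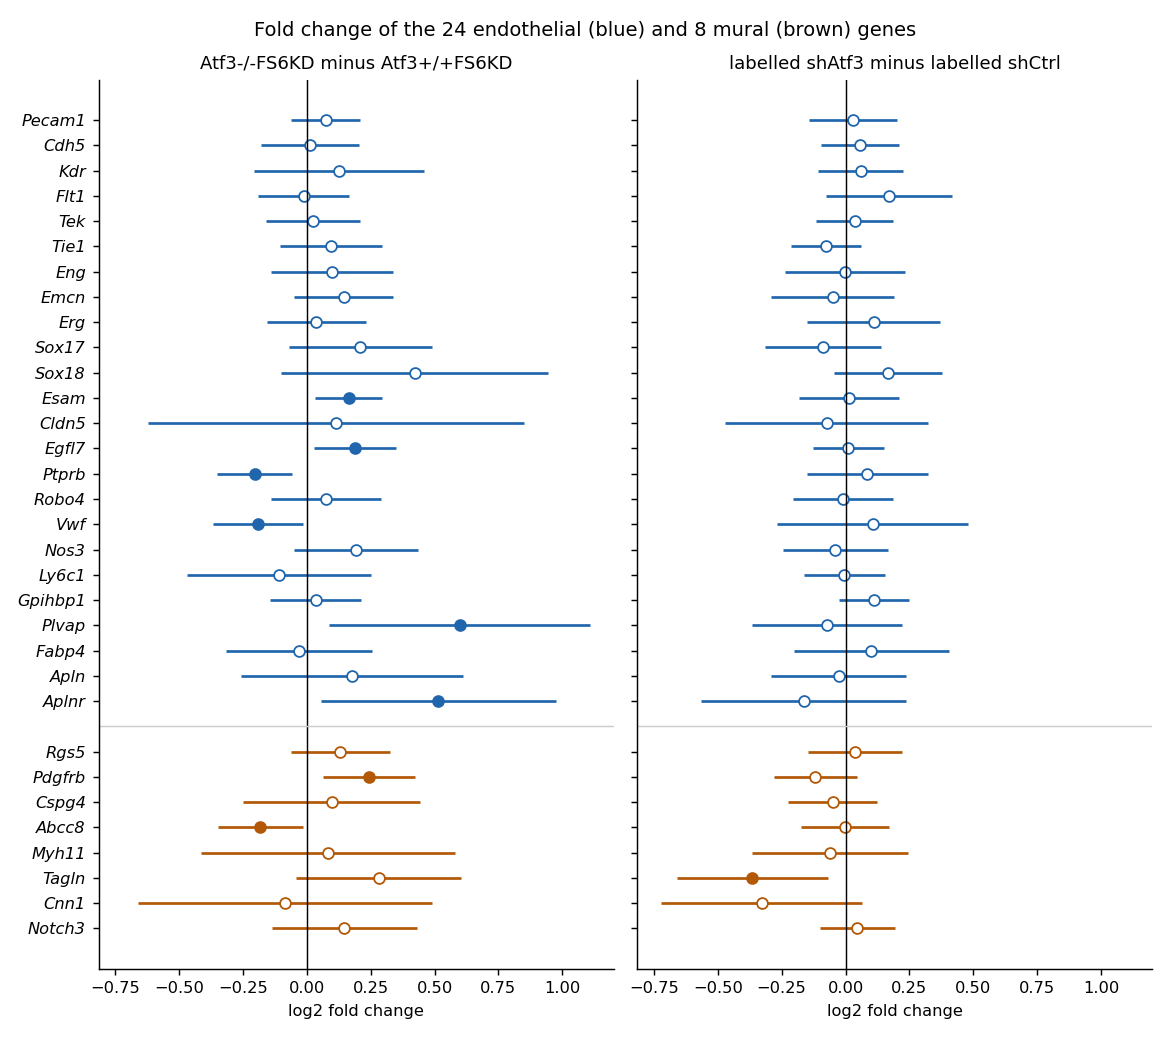
Log2 fold change of each gene with its 95% interval in the knockout comparison (left) and in the AAV comparison (right), for endothelial genes (blue) and mural genes (brown). Filled points have an unadjusted p below 0.05, which holds for 8 genes on the left and for Tagln on the right, and none passed the adjusted threshold.

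Among junction and surface proteins of the endothelium, 1 of 8 was higher and 1 of 8 lower at an unadjusted p below 0.05, beside 5.41% and 4.69% of all genes. Esam, an adhesion molecule of endothelial tight junctions, was measured at 60.2, 63.1, 62.7 and 63.7 CPM in Atf3+/+FS6KD hearts and at 64.6, 73.5, 68.2 and 73.4 CPM in Atf3-/-FS6KD hearts. Every Atf3-/-FS6KD heart lay above every Atf3+/+FS6KD heart, which made Esam 1 of the 32 genes without overlap, as were 5.71% of all genes tested. Its log2 fold change was 0.16 (SE 0.058, adjusted p 0.415). Ptprb, the phosphatase VE-PTP that holds TIE2 and VE-cadherin signalling in check, was measured at 210.5, 242, 233 and 227 CPM in Atf3+/+FS6KD hearts and at 191, 203.5, 185 and 212 CPM in Atf3-/-FS6KD hearts. The groups touched only through 1 heart on each side, and the log2 fold change was −0.20 (SE 0.066, adjusted p 0.392). Ptprb and Pdgfrb were the genes that kept an unadjusted p below 0.05 whichever of the 8 libraries was left out. Broad markers of the lineage had values near 0. Pecam1 was measured at 170.4, 176, 151 and 164 CPM against 171, 175, 169.6 and 181 CPM, giving 0.075 on the log2 scale (SE 0.060, adjusted p 0.692). Cdh5 was measured at 232, 235, 194 and 241 CPM against 240.1, 203, 226 and 241 CPM (log2 fold change 0.012, SE 0.085, adjusted p 0.973).

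Of the 4 receptor tyrosine kinases none had an unadjusted p below 0.05, and Kdr (0.13), Tie1 (0.096), Tek (0.025) and Flt1 (−0.012) had the log2 fold changes given in brackets. Flt1, the receptor with the CRE in its promoter window, was measured at 152.5, 186, 163 and 157 CPM in Atf3+/+FS6KD hearts and at 166, 166, 148 and 174 CPM in Atf3-/-FS6KD hearts, and its 95% interval ran from −0.19 to 0.16. The transcription factors Sox18 (0.42, SE 0.23), Sox17 (0.21, SE 0.12) and Erg (0.038, SE 0.085) were above 0 without passing either threshold. With its copies merged Erg had a value of 0.10 (SE 0.089), and in the AAV comparison it went from 0.11 to −0.0083.

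Of the 4 secreted proteins, enzymes and fenestra genes, 2 were higher and 1 lower at an unadjusted p below 0.05, beside 5.41% and 4.69% of all genes. Plvap, the protein of the diaphragms that span endothelial fenestrae and caveolae, was measured at 11.1, 7.65, 13.2 and 9.45 CPM in Atf3+/+FS6KD hearts and at 10.5, 13.1, 19.4 and 19.5 CPM in Atf3-/-FS6KD hearts. Both deep Atf3-/-FS6KD libraries stood highest and the groups overlapped, giving 0.60 on the log2 scale (SE 0.23, adjusted p 0.436), which was the highest of the 32 genes. Egfl7, a matrix protein secreted by endothelial cells, was measured at 75.4, 83.5, 68.4 and 79.2 CPM against 89.1, 81.2, 88.5 and 90.2 CPM (log2 fold change 0.19, SE 0.071, adjusted p 0.433). Vwf, the clotting factor carrier of venous and larger vessel endothelium, went the other way. It was measured at 64.2, 72.4, 68.4 and 73.5 CPM against 53.5, 60.95, 62.6 and 66.9 CPM, giving −0.19 on the log2 scale (SE 0.078, adjusted p 0.459), and only the lowest Atf3+/+FS6KD heart lay within the range of the other group. Nos3, the endothelial nitric oxide synthase, had a value of 0.19 on that scale (SE 0.11, adjusted p 0.579).

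In the apelin system the receptor and its ligand were both above 0. Aplnr was measured at 42.0, 64.0, 39.9 and 70.7 CPM in Atf3+/+FS6KD hearts and at 77.3, 58.7, 84.3 and 88.8 CPM in Atf3-/-FS6KD hearts. Of the latter, 3 lay above every Atf3+/+FS6KD heart and replicate 2 fell among them, giving 0.52 on the log2 scale (SE 0.20, adjusted p 0.454). Apln had a value of 0.18 on that scale (SE 0.19, adjusted p 0.781). Gpihbp1 was measured at 55.45, 52.8, 60.9 and 58.05 CPM against 56.9, 66.6, 54.8 and 54.7 CPM, with replicate 2 of Atf3-/-FS6KD above the rest. The capillary genes Gpihbp1 (0.035, SE 0.078), Fabp4 (−0.031, SE 0.13) and Ly6c1 (−0.11, SE 0.16) had no unadjusted p below 0.05.

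Of the 8 mural genes, 1 had an unadjusted p below 0.05 upward and 1 downward, beside 5.41% and 4.69% of all genes. Pdgfrb was measured at 99.9, 103, 87.65 and 104 CPM in Atf3+/+FS6KD hearts and at 118, 103.5, 127 and 118 CPM in Atf3-/-FS6KD hearts. Replicate 2 of the Atf3-/-FS6KD group lay within the range of the other group and the remaining 3 above it, giving 0.24 on the log2 scale (SE 0.080, adjusted p 0.392). Fibroblasts also express Pdgfrb, and the 10 fibroblast markers had a median of 0.33 on the log2 scale, with 10 of 10 above 0 and 7 higher at an unadjusted p below 0.05 (5.41% of all genes), although none passed the adjusted threshold. Their summed level was 2842 to 3907 CPM in Atf3+/+FS6KD hearts and 3591 to 4346 CPM in Atf3-/-FS6KD hearts. Their part in the value of Pdgfrb was not tested. Abcc8, a sulfonylurea receptor of potassium channels that is also made in atrial muscle, was counted here among the pericyte genes. It was measured at 58.5, 47.2, 49.4 and 51.8 CPM against 44.9, 43.2, 47.9 and 46.4 CPM. The overlap was by 1 heart, and the log2 fold change was −0.18 (SE 0.074, adjusted p 0.459).

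The most abundant pericyte gene, Rgs5, was measured at 876, 947, 727 and 804 CPM in Atf3+/+FS6KD hearts and at 919, 847, 937 and 972 CPM in Atf3-/-FS6KD hearts (log2 fold change 0.13, SE 0.085, adjusted p 0.618). Notch3, the Notch receptor of mural cells, was measured at 54.45, 65.0, 59.7 and 66.5 CPM against 56.4, 59.3, 83.0 and 73.0 CPM, giving 0.15 on the log2 scale (SE 0.13, adjusted p 0.710). The genotypes overlapped for both genes, and within replicates 1 and 2 both values were −0.042, against 0.32 for Rgs5 and 0.31 for Notch3 within replicates 3 and 4. The contractile genes of smooth muscle varied between hearts of one genotype. Myh11 was measured at 52.7, 66.45, 31.7 and 39.5 CPM against 39.1, 54.0, 47.6 and 59.85 CPM (log2 fold change 0.083, SE 0.22, adjusted p 0.922), and its value was −0.35 within replicates 1 and 2 and 0.59 within replicates 3 and 4. Tagln (SM22) was measured at 18.65, 21.4, 16.2 and 14.8 CPM against 17.9, 25.9, 22.6 and 19.5 CPM, giving 0.28 on the log2 scale (SE 0.14, adjusted p 0.544). Cnn1 and Cspg4 had log2 fold changes of −0.086 (SE 0.26) and 0.098 (SE 0.15).

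**Figure D3:**
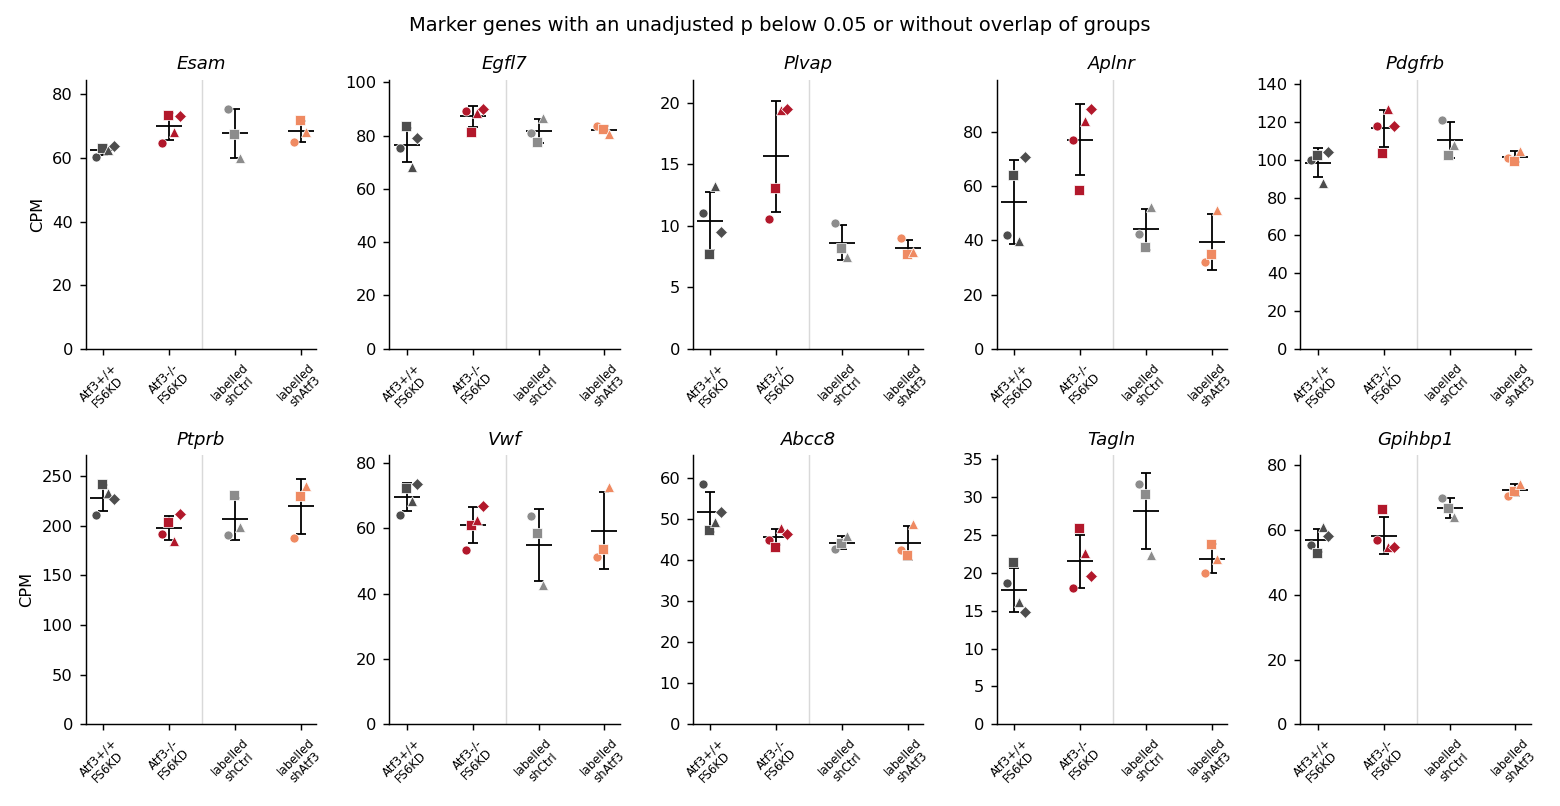
CPM of 10 vessel genes in every heart, with the group mean and SD in black (circle, replicate 1; square, replicate 2; triangle, replicate 3; diamond, replicate 4). CPM was scaled within each experiment, and Esam on the left side and Gpihbp1 on the right side of their panels are the genes whose groups do not overlap.

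The second comparison set hearts labelled shAtf3 against hearts labelled shCtrl. None of the 32 vessel genes passed an adjusted p of 0.05 with edgeR or with DESeq2, against 0.539% of all 15225 genes tested with edgeR. Tagln alone had an unadjusted p below 0.05, 1 of 32, against 12.7% of all genes. The endothelial median log2 fold change was 0.012, with 13 of 24 above 0, beside −0.0029 over all genes tested. The mural median was −0.057, with 2 of 8 above 0. With 1 library left out the endothelial median ran from −0.00912 to 0.0537, below 0 without labelled shCtrl replicate 3 or labelled shAtf3 replicate 3, and the mural median from −0.0945, without labelled shAtf3 replicate 3, to −0.0361, without labelled shAtf3 replicate 1. Here the 95% interval lay inside a 1.5-fold change for 24 of 24 endothelial genes and for 6 of 8 mural genes, all but Tagln and Cnn1.

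Of the 3 contractile genes of smooth muscle 0 were above 0, and their median log2 fold change was −0.33. Of 10 further smooth muscle genes 4 were above 0, with a median of −0.065. At an unadjusted p below 0.05, 1 of these 10 was higher (Synpo2, 0.20) and 0 were lower, beside 5.05% and 7.65% of all genes. Tagln was measured at 31.7, 30.4 and 22.3 CPM in hearts labelled shCtrl and at 20, 23.7 and 21.85 CPM in hearts labelled shAtf3. Replicate 3 of the libraries labelled shCtrl lay among those labelled shAtf3, and the log2 fold change was −0.36 (SE 0.13, adjusted p 0.292). Without labelled shCtrl replicate 3 it was −0.51 with an adjusted p of 0.0228, and over all alternatives the adjusted p ran from 0.0228 to 0.566. The unadjusted p of Tagln was above 0.05 without labelled shCtrl replicate 1 or 2 and without labelled shAtf3 replicate 1 or 3. Cnn1, which like Tagln is also made by myofibroblasts, was measured at 3.81, 5.09 and 3.23 CPM against 3.05, 3.23 and 3.39 CPM (log2 fold change −0.33, SE 0.17, adjusted p 0.474). Myh11, the smooth muscle myosin heavy chain, was measured at 55.4, 71.1 and 55.1 CPM against 47.2, 65.1 and 61.8 CPM, giving −0.062 on the log2 scale (SE 0.14, adjusted p 0.895). Fibroblast markers were lower in the hearts labelled shAtf3 (median of the log2 fold changes −0.50), 10 of 10 at an unadjusted p below 0.05 (7.65% of all genes were lower at that threshold) and 5 (Col1a1, Col1a2, Col3a1, Dpt and Postn) at an adjusted p below 0.05 (0.453%). None of these 5 passed without labelled shCtrl replicate 2 or without any 1 of the libraries labelled shAtf3, where their adjusted p reached at most 0.178. With a replicate block only Postn of the 5 passed. Their summed level was 3919 to 4955 CPM in libraries labelled shCtrl and 3081 to 3163 CPM in those labelled shAtf3. Their part in the values of Tagln and Cnn1 was not tested.

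Among pericyte genes, Rgs5 was measured at 982, 878 and 859 CPM in hearts labelled shCtrl and at 830.1, 983 and 975 CPM in those labelled shAtf3 (log2 fold change 0.037, SE 0.082, adjusted p 0.898). Pdgfrb was measured at 121, 103 and 108 CPM against 101, 99.4 and 105 CPM, giving −0.12 on the log2 scale (SE 0.072, adjusted p 0.539). Notch3, the highest of the mural genes under the titles, was measured at 57.85, 58.8 and 61.2 CPM against 61.25, 57.4 and 64.85 CPM (0.045, SE 0.065). Abcc8 was measured at 42.7, 44.2 and 45.85 CPM against 42.4, 41.3 and 48.9 CPM (−0.0013, SE 0.076), and Cspg4 had a value of −0.051 (SE 0.077). The groups overlapped for Notch3 and Abcc8.

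On the endothelial side, Gpihbp1 was the single member without overlap, against 18.4% of all genes tested. It was measured at 69.9, 66.7 and 63.9 CPM in hearts labelled shCtrl and at 70.4, 72.2 and 74.1 CPM in hearts labelled shAtf3, so that the nearest hearts of both groups were almost level. Its log2 fold change was 0.11 (SE 0.060, adjusted p 0.478). Flt1 had the highest endothelial value, 171, 181.5 and 145 CPM against 159.5, 205 and 195 CPM (log2 fold change 0.17, SE 0.11, adjusted p 0.566). The lowest was that of Aplnr, 42.4, 37.45 and 52.5 CPM against 32.1, 34.9 and 51.2 CPM, giving −0.16 on the log2 scale (SE 0.18, adjusted p 0.762). This order rests on the AAV titles, and with the column names in their place Aplnr would be the highest at 0.16 and Flt1 the lowest at −0.17. Kdr was measured at 203, 175 and 171.5 CPM against 188.5, 187 and 197 CPM (0.059, SE 0.074). Cdh5 was measured at 199.1, 199 and 203 CPM against 194, 205 and 227 CPM (0.057, SE 0.068), and Pecam1 at 175, 165.5 and 163 CPM against 153, 177 and 183 CPM (0.028, SE 0.076). All 3 had intervals on both sides of 0.

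Of the endothelial genes with an unadjusted p below 0.05 in the knockout comparison, Aplnr is given above. The other 5, Esam, Egfl7, Ptprb, Vwf and Plvap, had log2 fold changes of 0.013, 0.011, 0.085, 0.11 and −0.072 here, with adjusted p from 0.8 to 0.969. Esam was measured at 75.6, 67.6 and 59.9 CPM in hearts labelled shCtrl and at 65.2, 71.8 and 68.1 CPM in hearts labelled shAtf3. Egfl7 was measured at 81.0, 77.6 and 86.5 CPM against 83.6, 82.6 and 80.8 CPM. For both, the hearts labelled shAtf3 lay within the range of the others. Ptprb was measured at 191, 231 and 198 CPM against 188, 229.9 and 240.1 CPM. Vwf was measured at 63.8, 58.5 and 42.7 CPM against 51.2, 53.7 and 72.8 CPM, and Plvap at 10.2, 8.17 and 7.43 CPM against 8.965, 7.71 and 7.87 CPM. The groups overlapped for all 5 genes.

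Whether the effects in the knockout and the AAV experiment differed was tested gene by gene over the 14 libraries. None of the 32 genes passed the adjusted threshold with edgeR or DESeq2, against 0.166% of all 15708 genes with edgeR, and 3 of 32 had an unadjusted p below 0.05, against 17% of all genes. Pdgfrb had a difference of log2 fold changes (knockout minus AAV) of 0.36 (SE 0.11, adjusted p 0.143) and Tagln one of 0.64 (SE 0.21, adjusted p 0.155). Both kept an unadjusted p below 0.05 whichever of the 14 libraries was left out, and their lowest adjusted p over the alternatives were 0.0609 and 0.0818. Ptprb had a difference of −0.29 (SE 0.13, adjusted p 0.264). The fibroblast markers had a median difference of 0.82, with 10 of 10 at an unadjusted p below 0.05 and 4 (Col1a1, Col1a2, Col3a1 and Dpt) at an adjusted p below 0.05. Of these 4, 0 passed without labelled shAtf3 replicate 1 or 2, 1 without labelled shCtrl replicate 1 or 2 or Atf3-/-FS6KD replicate 2, and 4 without any 1 of 6 other libraries. Leaving out labelled shAtf3 replicate 3 or Atf3+/+FS6KD replicate 4 kept 2 of them past the threshold, and 3 of them passed when Atf3+/+FS6KD replicate 2 was left out. Size and call rest on the AAV titles. With the column names in place of the titles, the difference was 0.13 (SE 0.115) for Pdgfrb, −0.079 (SE 0.215) for Tagln and −0.12 (SE 0.128) for Ptprb, each with an adjusted p of 1, and 0 of the 32 genes and 643 of all genes had an unadjusted p below 0.05. The fibroblast median was then −0.20, with 0 of 10 at an unadjusted p below 0.05, and 0 of all genes passed the adjusted threshold.

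Endothelial and mural genes were then set against each other within each heart, as the mean log2 CPM of the 24 endothelial genes minus that of the 8 mural genes. In Atf3+/+FS6KD hearts this difference was 0.46, 0.35, 0.54 and 0.63, and in Atf3-/-FS6KD hearts it was 0.61, 0.48, 0.41 and 0.58. The genotypes overlapped fully, with means of 0.49 ± 0.12 (SD, n = 4) and 0.52 ± 0.093 (SD, n = 4). In hearts labelled shCtrl it was 0.24, 0.13 and 0.25, and in those labelled shAtf3 it was 0.33, 0.32 and 0.32, which did not overlap. Of all genes tested singly in that comparison, 18.4% did not overlap either. With the 5 pericyte genes in place of the 8 mural genes the same measure overlapped, at −0.615, −0.608 and −0.684 for the label shCtrl and −0.643, −0.547 and −0.606 for the label shAtf3. The smooth muscle genes had a mean log2 CPM of 4.30 and 4.08 in these groups and the pericyte genes one of 6.55 and 6.53. The difference of the medians of the log2 fold changes was −0.017 in the knockout comparison and 0.069 in the AAV comparison. With 1 library left out the knockout value ran from −0.0835, without Atf3-/-FS6KD replicate 1, to 0.0201, without Atf3+/+FS6KD replicate 4, and it was also above 0 without Atf3-/-FS6KD replicate 3, while the AAV value ran from 0.0602 to 0.0932. With other marker genes of capillaries, arteries and veins against other marker genes of pericytes and smooth muscle, the AAV value was 0.0096, and with pericyte genes alone it was 0.0134. The mean log2 CPM of the endothelial genes alone lay between 5.85 and 6.04 in Atf3+/+FS6KD and between 6.015 and 6.18 in Atf3-/-FS6KD hearts, and between 5.87 and 5.97 in hearts labelled shCtrl and between 5.86 and 6.002 in those labelled shAtf3. For comparison, the mean log2 CPM of the fibroblast markers went from 7.28 to 7.64 between the genotypes and from 7.79 to 7.17 between the AAV groups. That of the cardiomyocyte markers went from 12.53 to 12.41 and from 12.41 to 12.52, and that of the macrophage markers from 4.62 to 4.84 and from 5.12 to 4.96.

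**Figure D4:**
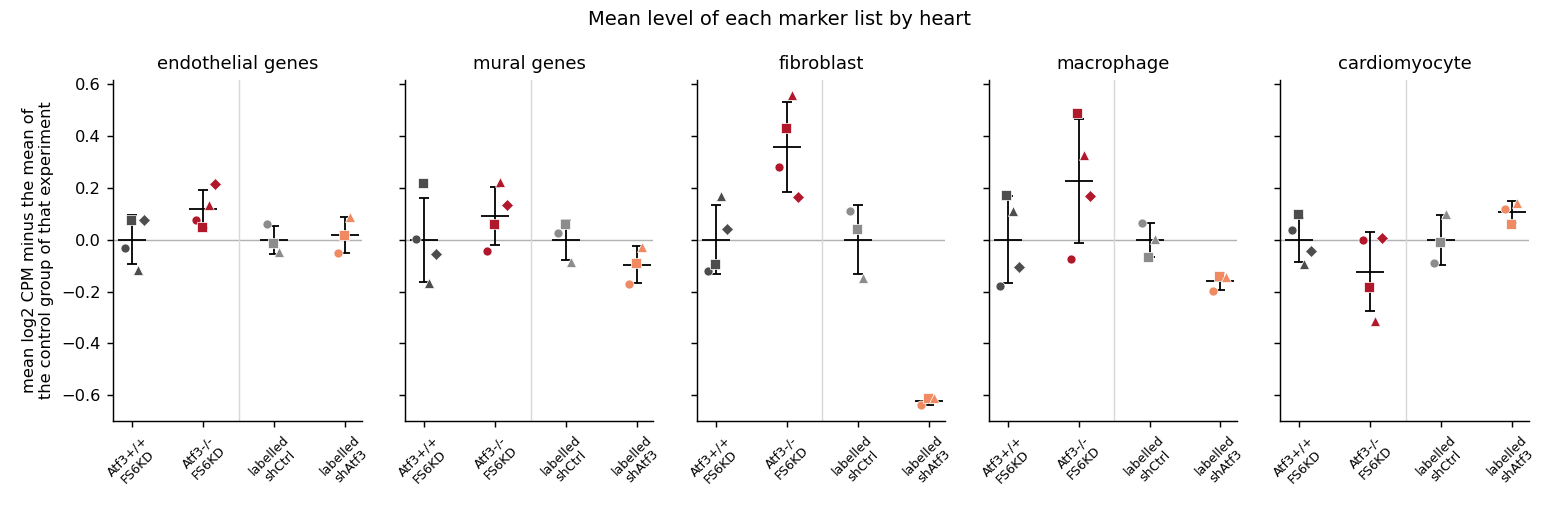
Mean log2 CPM of the genes of each list in every heart, minus the mean of the control group of that experiment (Atf3+/+FS6KD or labelled shCtrl), with the group mean and SD in black and the same symbols for replicates as above. Endothelial and mural genes stay near 0 in all groups, and the fibroblast markers stand apart, at 7.17 in libraries labelled shAtf3 against 7.79 in those labelled shCtrl before the subtraction.

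Some vessel genes varied between hearts of the same group far more than others. The pooled within-group SD of log2 CPM in the knockout experiment ran from 0.068 for Esam and 0.0725 for Pecam1 to 0.56 for Cldn5, with a median of 0.16 over the 32 genes, and in the AAV experiment it ran from 0.053 for Gpihbp1 to 0.31 for Aplnr. Cldn5 was measured at 18.2, 8.42, 7.23 and 17.1 CPM in Atf3+/+FS6KD hearts and at 17.1, 8.45, 14.1 and 15.5 CPM in Atf3-/-FS6KD hearts. Kdr was measured at 275, 212, 194 and 295 CPM and at 299.9, 217, 266 and 282 CPM in the same hearts. Replicates 2 and 3 of Atf3+/+FS6KD and replicate 2 of Atf3-/-FS6KD were the 3 lowest hearts for both genes. Pecam1 stood at 175.5, 151 and 175 CPM in these hearts, of which the second is the lowest of the 8 and the others are among the 3 highest.

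The same 3 hearts differed in genes of the circadian clock, which were added after these values had been seen. Dbp, a clock output gene, was highest in them at 116, 136 and 87.2 CPM, with the other 5 hearts between 35.0 and 58.3 CPM. Per1, a clock repressor, was highest in them too, at 57.1, 119 and 79.1 CPM, with the others between 17.45 and 41.55 CPM. Of the 8 clock genes, Per2, Ciart and Cry2 also had their 3 highest values there, Npas2 (1.94, 1.31 and 2.31 CPM) and Arntl (2.12, 4.84 and 6.79 CPM), both clock activators, had their 3 lowest, and Nr1d1 had another order. In the AAV experiment the library with the lowest Dbp, labelled shCtrl replicate 1 at 70.1 CPM, had the highest Kdr at 203 CPM, but the one with the highest Dbp, labelled shAtf3 replicate 1 at 144 CPM, had the highest Cldn5 at 8.91 CPM. The labels give no hour of collection, and the part of the clock in these values was not tested. The letters CACGTG (E-box, in 7.15% of all promoter windows) and TTATGNAA (D-box, in 3.38%), also searched after the values were seen, had no match in the windows of Kdr and Cldn5 shown above or in those of the other genes.

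Ly6c1 was nearly level in most hearts of the knockout experiment and higher in replicate 2 of each genotype. The number 2 is that of the titles, and the deposited column names number these hearts differently. In the knockout experiment 6 of 8 hearts lay between 94.8 and 96.9 CPM, while replicate 2 of Atf3+/+FS6KD stood at 153 CPM and replicate 2 of Atf3-/-FS6KD at 119 CPM. In the AAV experiment all 6 hearts lay between 129 and 148 CPM. Ly6c2, a near-identical neighbour on chromosome 15, was high in the same hearts, and how reads were split between these genes is uncertain. It was measured at 10.2, 16.9, 10.85 and 10.7 CPM in Atf3+/+FS6KD hearts and at 11.0, 13.85, 10.8 and 11.4 CPM in Atf3-/-FS6KD hearts. Ly6a, another gene of the family, had its highest knockout values in the same replicates, at 106 and 111.5 CPM against 69.15 to 92.85 CPM in the other hearts. The strain background of the line is mixed, and its part in these levels was not tested.

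**Figure D5:**
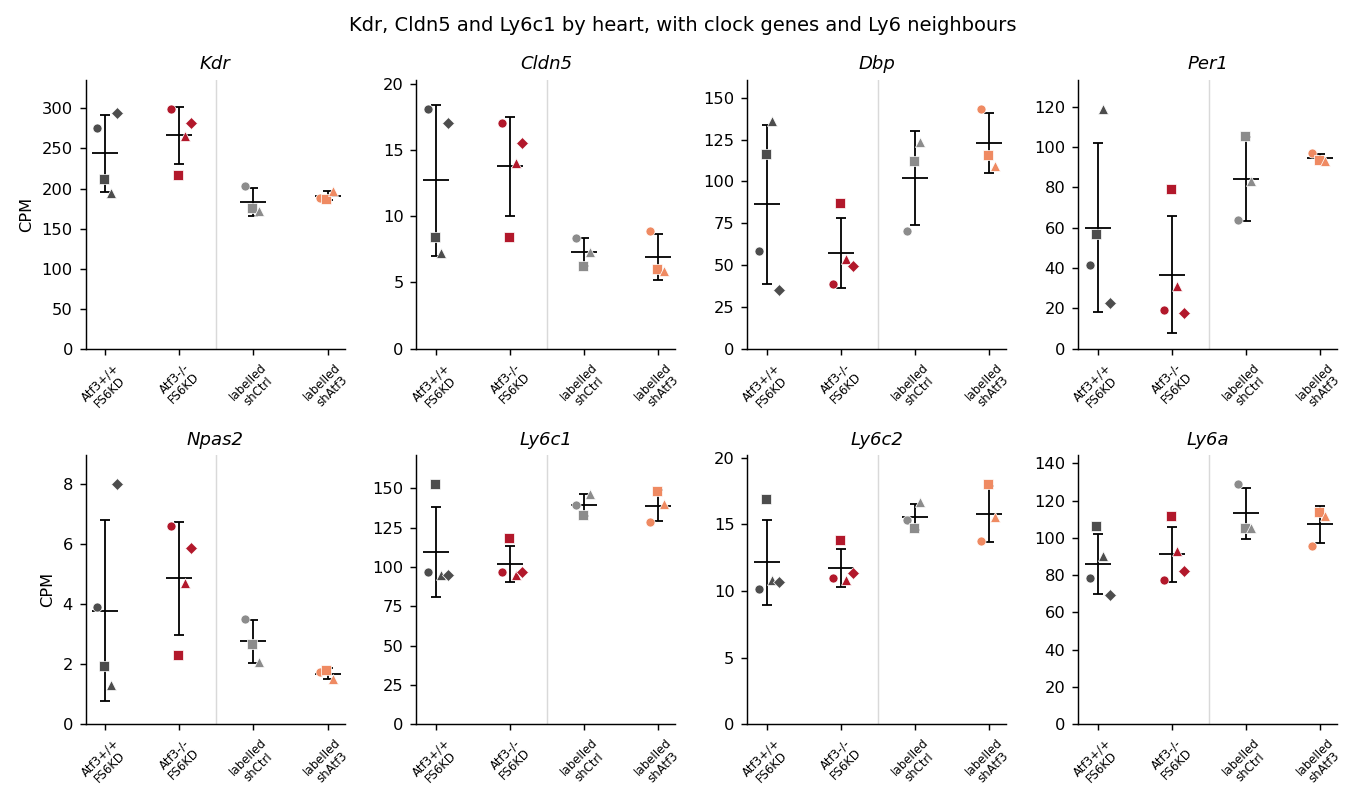
CPM of Kdr, Cldn5 and Ly6c1 in every heart beside 3 clock genes and 2 further Ly6 genes, with the group mean and SD in black and the same symbols for replicates. Replicates 2 and 3 of Atf3+/+FS6KD and replicate 2 of Atf3-/-FS6KD are low in Kdr and Cldn5 and high in Dbp and Per1. Replicate 2 of each genotype, numbered as in the titles, stands highest of its genotype in Ly6c1 and Ly6c2.

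Signalling systems around these markers are given by their counts at an unadjusted p below 0.05, which name no direction for a system as a whole. Over all genes these shares were 10.1% in the knockout comparison (5.41% higher, 4.69% lower) and 12.7% in the AAV comparison (5.05% higher, 7.65% lower). Of 10 VEGF ligands and receptors, 2 (Flt4 and Nrp2, receptors of lymphatic and venous endothelium) were higher and 0 lower at an unadjusted p below 0.05 in the knockout comparison and 1 (Vegfd) was lower in the AAV comparison, none at an adjusted p below 0.05. Of 7 genes of the angiopoietin system, 1 was lower in the knockout comparison (Ptprb) and 2 were lower in the AAV comparison (Angpt4 and Svep1). Svep1, a large matrix protein, passed the adjusted threshold in the AAV comparison, but with 1 library left out it did so only without labelled shCtrl replicate 3, and its adjusted p ran from 0.0134 to 0.23. It was measured at 79.8, 81.5 and 73.7 CPM in hearts labelled shCtrl and at 55.3, 62.7 and 55.8 CPM in those labelled shAtf3 (log2 fold change −0.44, SE 0.072, adjusted p 0.0437). These groups did not overlap, as for 18.4% of all genes tested. The fibroblast markers given above moved the same way, their part in it was not tested, and its knockout value was 0.33 (SE 0.24, adjusted p 0.658). Of 13 genes of the Notch system, 3 (Notch2, Jag1 and Heyl) were higher in the knockout comparison, and in the AAV comparison 1 (Hey2) was higher and 1 (Notch2) lower. Notch2 was measured at 26.5, 25.2, 24.5 and 27.0 CPM against 31.1, 28.4, 29.7 and 28.5 CPM in the knockout comparison (log2 fold change 0.19, SE 0.058, adjusted p 0.389) and at 24.4, 27.4 and 25.1 CPM against 20.5, 21.8 and 23.7 CPM in the AAV comparison (−0.22, SE 0.081, adjusted p 0.306). The genotypes and the AAV groups did not overlap for Notch2, as for 5.71% and 18.4% of all genes tested. Of 6 PDGF genes, 2 were higher in the knockout comparison, Pdgfrb and the fibroblast receptor Pdgfra, and 1 was lower in the AAV comparison, Pdgfra. Pdgfra had log2 fold changes of 0.19 (SE 0.064, adjusted p 0.392) and −0.38 (SE 0.089, adjusted p 0.133). Of 6 genes of shear response and quiescence, 0 had an unadjusted p below 0.05 in either comparison.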

How the data were processed

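RNA of 14 female mouse hearts was measured with stranded mRNA libraries. The values deposited by the authors are estimated counts per gene, of which 19.3% to 24.4% are not whole numbers. Per the labels they were made with featureCounts 2.0.0 on GRCm38.p6. The aligner and the strand setting are not given in the sources used here. The tests had been planned for whole counts, so values were rounded first. Groups came from the labels. Within each experiment, genes above 1 CPM in at least 1 library were scaled by TMM and tested with the quasi-likelihood F-test of edgeR 4.0.16 in R 4.3.3, and p-values were adjusted by Benjamini and Hochberg over all genes tested, with a threshold of 0.05. The difference of the effects was an interaction term over 14 libraries. DESeq2 1.42.0 was an alternative. Further alternatives were other size factors and filters, merged copies, a replicate block, a depth term, subsets of replicates and leaving out each library. The AAV column names in place of the titles, and pericyte genes alone, were added after the data were seen. RPKM used exonic lengths of GENCODE M21. Depth limits the low genes: counting error is smaller in replicates 3 and 4 of the knockout experiment. The members and lists were chosen with earlier results of these data known. Given with values in every library were members at an unadjusted or adjusted p below 0.05 in either comparison or in the interaction, members without overlap, the highest and lowest log2 fold change of each class, and Pecam1, Cdh5, Kdr, Rgs5, Pdgfrb, Myh11 and Tagln. Genes of other lists were named at an adjusted p below 0.05 in either comparison or an unadjusted one in both. Other genes named in the text were chosen after their values were seen. Clock and further Ly6 genes and the E-box and D-box were added after values were seen.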

Additional observations from a re-analysis of the deposited data

Results flagged for a closer look

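In groups of 4 hearts, a value was set apart where its gap to the nearest other heart was large against the range of the group, which chance gives in about 1 in 20 groups. Of 64 groups tested 3 were set apart, where chance gives 3.2. Emcn, the endothelial sialomucin endomucin, stood at 57.2 CPM in Atf3+/+FS6KD replicate 2, with the other 3 hearts between 44.0 and 45.6 CPM. Ly6c1 stood at 153 CPM in Atf3+/+FS6KD replicate 2, with the others between 94.9 and 96.6 CPM. It stood at 119 CPM in Atf3-/-FS6KD replicate 2, with the others between 94.8 and 96.9 CPM.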

How the results depend on the processing

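The number of genes past the adjusted threshold depended on the tool, and no member passed in any of the fits of all libraries. In the knockout comparison 0 genes passed with edgeR (1575 at an unadjusted p below 0.05), 208 with DESeq2, 2 with no filter, 8 with replicates 3 and 4 alone and 0 to 15 with 1 library left out. Members at an unadjusted p below 0.05 were 0 with replicates 1 and 2 alone, 12 with library size alone and 3 to 10 with 1 library left out. Over all genes these fits gave 909 of 15397, 1980 of 15592 and 1107 to 1708. The mural median was −0.042 with replicates 1 and 2 and 0.31 with replicates 3 and 4, and the endothelial minus mural median −0.15 with replicates 3 and 4. In the AAV comparison 82 genes passed, 308 with DESeq2, 304 with no filter and 1 to 285 with 1 library left out. With 1 library left out 0 to 1 members passed, and 0 to 2 had an unadjusted p below 0.05, beside 1367 to 2293 of all genes. The endothelial minus mural median was 0.0096 with other vessel lists and, in an alternative added after the data were seen, 0.0134 with pericyte genes alone. For the difference of effects 26 genes passed, 669 with DESeq2, 205 with library size alone and 0 to 168 with 1 library left out. Members at an unadjusted p below 0.05 were 5 with DESeq2, 8 with library size alone and 2 to 7 with 1 library left out. Over all genes these fits gave 2749 and 2988 of 15708 and 2060 to 2837. With the AAV column names in place of the titles, also added later, 0 genes passed and Tagln was −0.079. In that fit 0 members had an unadjusted p below 0.05, beside 643 of 15708 genes. The replicate numbers did not pair the samples (correlations of same-numbered libraries 0.006 to 0.145 and 0 to 0.151), and a replicate block gave 11 members at an unadjusted p below 0.05 in the knockout comparison, 20 genes in the AAV comparison, and 54 genes and 5 members for the difference. Of the 5 fibroblast genes and Svep1 past the adjusted threshold in the AAV comparison, 1 (Postn, adjusted p 0.0478) passed with the block, and the highest adjusted p of the 6 was 0.08. Library size alone moved the median of all genes by 0.061, −0.040 and 0.104. Values near 0 changed sign. In the knockout comparison these were Flt1 (0.0496 with library size alone, 0.00698 with replicates 3 and 4), Gpihbp1 (−0.12 with replicates 3 and 4) and, with replicates 1 and 2, Cdh5 (−0.072), Rgs5 (−0.042), Myh11 (−0.35) and Notch3 (−0.042). With 1 library left out Flt1 ran from −0.047 to 0.051, Cdh5 from −0.054 to 0.063, Myh11 from −0.071 to 0.28 and Gpihbp1 from −0.035 to 0.069. In the AAV comparison Abcc8 was 0.00077 with DESeq2, 0.00082 with its size factors, 0.0062 with no filter and 0.0031 with filterByExpr, and library size alone gave Pecam1 −0.012, Esam −0.027, Egfl7 −0.029 and Rgs5 −0.0035. With 1 library left out Plvap ran from −0.17 to 0.07, Egfl7 from −0.025 to 0.053, Myh11 from −0.14 to 0.069, Esam from −0.067 to 0.0997, Vwf from −0.069 to 0.23, Rgs5 from −0.00066 to 0.11, Abcc8 from −0.079 to 0.054, Pecam1 from −0.024 to 0.101 and Cdh5 from −0.0082 to 0.11. The cause of these changes was not tested.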

Other observations

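Markers of other vessel classes were examined beside the 32 genes, and none of those named in this paragraph passed the adjusted threshold. In the knockout comparison the 7 lymphatic markers had a median log2 fold change of 0.33, with 7 of 7 above 0 and 3 higher at an unadjusted p below 0.05 (5.41% of all genes), namely Flt4, the receptor of VEGF-C, the chemokine gene Ccl21a and Mmrn1. Flt4 was measured at 29.0, 25.7, 29.4 and 31.85 CPM in Atf3+/+FS6KD hearts and at 32.2, 34.3, 42.6 and 38.8 CPM in Atf3-/-FS6KD hearts (log2 fold change 0.35, SE 0.0999, adjusted p 0.368). The genotypes did not overlap, as for 5.71% of all genes tested. In the AAV comparison the lymphatic median was −0.13, with 2 of 7 above 0. Of the 7 tip cell genes 6 were above 0 in the knockout comparison and 1 in the AAV comparison. Of the 10 further capillary markers 1 was above 0 in the knockout comparison (median −0.14) and 8 in the AAV comparison (median 0.15), and 1 of 10 had an unadjusted p below 0.05 in each, beside 10.1% and 12.7% of all genes. The AAV counts of these 3 lists rest on the titles, and with the column names in their place 5 of 7 lymphatic, 6 of 7 tip cell and 2 of 10 capillary genes would be above 0 there. Among the capillary markers Lpl, which cardiomyocytes also express, was measured at 5281, 5484, 5182 and 5565 CPM against 4901, 4347, 4933 and 4844 CPM in the knockout comparison. Of 9 further smooth muscle genes tested in the knockout comparison 5 were above 0, 1 was higher at an unadjusted p below 0.05 (Rgs4, 0.36 on the log2 scale) and 2 were lower (Myl9, −1.01, and Pcp4l1, −0.93), beside 5.41% and 4.69% of all genes. Acta2, smooth muscle actin, which did not pass that threshold and was chosen after its values were seen, was measured at 128, 300.2, 61.9 and 327.5 CPM in Atf3+/+FS6KD hearts and at 55.2, 97.2, 146 and 90.3 CPM in Atf3-/-FS6KD hearts, with the highest values in replicates 2 and 4 of Atf3+/+FS6KD (log2 fold change −1.07, SE 0.49, adjusted p 0.510).

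Genes of the cell type lists that had an unadjusted p below 0.05 in both comparisons were 7 fibroblast genes, the macrophage gene Cd68 (0.33 in the knockout and −0.29 in the AAV comparison, on the log2 scale) and the cardiac actin gene Actc1 (0.47 and 0.17). The fibroblast genes were Pdgfra (0.19 and −0.38), Col1a1 (0.63 and −0.84), Col1a2 (0.48 and −0.82), Col3a1 (0.71 and −1.05), Dpt (0.29 and −0.47), Lum (0.27 and −0.35) and Tcf21 (0.36 and −0.52). Of these, Col1a1, Col1a2, Col3a1 and Dpt had an adjusted p below 0.05 in the AAV comparison, as did Postn (0.41 and −1.14), and none had one in the knockout comparison. With a replicate block only Postn of these genes kept it.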
